A study of Mus musculus with 45 samples.

Results

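Genes with symbols of cytosolic ribosomal proteins were described here, 86 of 30317 in the deposited table. They were chosen by their symbol (Rps or Rpl followed by a number, Rplp0 to Rplp2, and Rpsa) and by a mean of at least 10 TPM, transcripts per 1e+06, over all 45 libraries. Of the 92 symbols that match, 36 Rps and 50 Rpl genes reached that level, and all 86 passed the filter on low values. Just inside it lay Rps3a3 with a mean of 18.6 TPM, Rps3a2 with 20.9 TPM and Rpl37rt with 34.2 TPM, and just outside lay Rps12 with 7.75 TPM and Rps4l with 4.32 TPM. Since the level chose the members, their mean levels are descriptions. Rps3a2 and Rps3a3 reached it only through unstimulated OP9 cells, described below, with means of 3.88 and 5.16 TPM over the other 42 libraries, so their differences from that group are descriptions too. For the other 84 the differences between groups did not decide the choice. Rps19bp1, which binds Rps19 and is no subunit, came in through its symbol. So did Rpl7l1, an assembly factor, and 4 members that GENCODE lists as pseudogenes, Rps3a2, Rps3a3, Rps12l1 and Rpl37rt.

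All libraries came from follicular B cells, the recirculating B cells of spleen follicles, of B6.Blimp1GFP/+ mice, which carry GFP in the gene of Blimp1, the factor that drives plasma cell formation. Cells were cultured on OP9-DL1, a stroma that displays Delta-like 1, a ligand of Notch receptors (called DL1 cells here), or on OP9, the stromal line without it (OP9 cells). Either culture received LPS from Salmonella enterica, which triggers TLR4, or anti-IgM F(ab')2, which crosslinks the B cell receptor, each at 10 µg/mL, for 20, 44 or 68 h. Unstimulated cells were kept on each stroma for 68 h. A last group held Blimp1+ cells, which were isolated by sorting out of LPS-treated DL1 cultures; the labels give no time for it. Every group had 3 libraries, made from sorted viable cells, and whether replicates stem from different animals is not given in the sources used here.

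A ribosome joins a small subunit, which reads the mRNA, to a large subunit, which makes the peptide bond. Each holds a set of proteins in 1 copy per particle, apart from the stalk proteins Rplp1 and Rplp2, so the genes are usually expressed together. Their mRNAs typically start with a C followed by a run of pyrimidines, the TOP (terminal oligopyrimidine) motif, through which the kinase mTORC1 and the protein Larp1 set their translation. Activated B cells make more ribosomes before they divide and secrete antibody.

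The start regions of 63 of the 86 genes were found in a RefSeq promoter table (GRCm38.p6). A C within 2 bases of an annotated start followed by at least 4 more pyrimidines stood in 22 of these 63 genes (34.9%), in 1178 of 9914 other tested genes with a window (11.9%) and in 10.6% of all 27025 genes in the table. It is a description of the annotated starts, which need not be the starts used in B cells. The windows from 30 bases before to 20 bases from the start are shown for some members with a run, in capitals, and some without. They do not show how often a run occurs among the genes named below. Rpl35 lies at chr2:39005112-39005161 on the minus strand, Rps6 at chr4:86857348-86857397 on the minus strand and Rpl38 at chr11:114668550-114668599 on the plus strand. Rpl27 lies at chr11:101442215-101442264 on the plus strand, Rps26 at chr10:128626487-128626536 on the minus strand and Rps2 at chr17:24720033-24720082 on the plus strand.
Rpl35: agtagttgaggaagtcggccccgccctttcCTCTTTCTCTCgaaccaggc
Rps6: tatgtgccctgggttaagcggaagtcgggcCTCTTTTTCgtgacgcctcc
Rpl38: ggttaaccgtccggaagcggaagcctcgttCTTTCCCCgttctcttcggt
Rpl27: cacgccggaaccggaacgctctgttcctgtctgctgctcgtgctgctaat
Rps26: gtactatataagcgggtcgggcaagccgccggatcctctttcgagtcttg
Rps2: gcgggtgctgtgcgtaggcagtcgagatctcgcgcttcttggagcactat
The run spans 11 bases in Rpl35, 9 in Rps6 and 8 in Rpl38, and no such run stands at the annotated start of Rpl27, Rps26 or Rps2.

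Estimated depth ran from 3.07 to 29.1 reads per library, in units of 1e+06 reads. In 10 libraries Actb, the gene of cytoplasmic actin, lay above 10000 TPM (12355 to 85337 TPM), against 217 to 2974 TPM in the other 35. They are all 3 libraries of DL1 cells with LPS at 20 h, all 3 of OP9 cells with anti-IgM at 20 h, and replicate 3 of DL1 cells with LPS at 68 h and, on OP9, of the LPS, the anti-IgM and the unstimulated cultures at 68 h. At 20 h this trait and the stroma cannot be told apart. All 8 B cell markers were detected in every group, and the summed level of the plasmablast markers was highest in Blimp1+ cells. Not every one of them was highest there. In Blimp1+ cells Sdc1 had a log2 fold change of 0.04 ± 0.59 (SE) against DL1 cells with LPS at 44 h. Against LPS at 68 h on DL1 it had 1.09 ± 0.59, while that culture had -3.76 ± 0.59 against unstimulated DL1 cells. The summed level of the B cell markers ran from 2213 TPM in a library of unstimulated OP9 cells to 40286 TPM in one of unstimulated DL1 cells, and that of 6 T cell markers from 9.82 to 428 TPM. A list of 12 stromal genes summed to 1179 to 16468 TPM in unstimulated OP9 cells, against at most 439.8 TPM in the other 42 libraries. The part of these marker levels in the results was not tested.

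Together the 86 genes took 4.24% to 18.8% of the listed TPM of a library, with a median of 9.70%. By group mean, the share was lowest in OP9 cells with anti-IgM at 68 h (5.81% ± 0.516, SD, n = 3) and in unstimulated DL1 cells (5.84% ± 1.66), which do not differ beyond their spread. It was highest in OP9 cells with LPS at 20 h (13.2% ± 5.86), whose libraries ran from 7.11% to 18.8% and so span most other groups, and next in DL1 cells with anti-IgM at 68 h (11.9% ± 0.742). TPM are shares of a library's transcripts, so a share does not give the amount of ribosomal mRNA in a cell, and in bulk samples fewer cells of a type and less RNA per cell cannot be told apart.

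**Figure D1:**
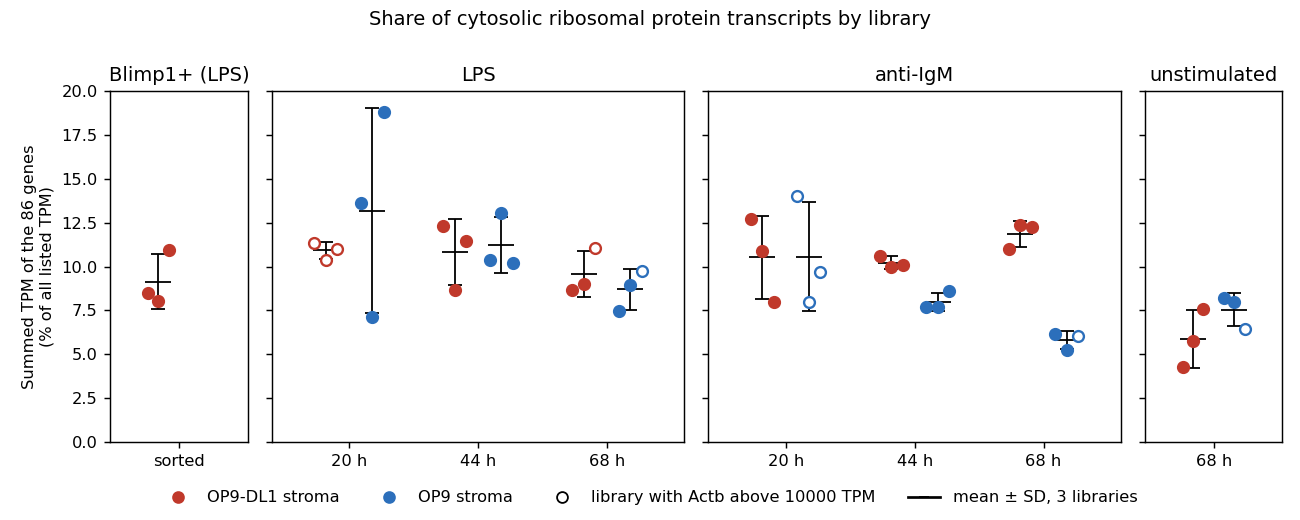
Summed TPM of the 86 genes as a percentage of all TPM listed, per library, for Blimp1+ cells, LPS, anti-IgM and unstimulated cultures by time in hours. Red points are OP9-DL1 cultures, blue points OP9 cultures, open points libraries with Actb above 10000 TPM, and bars mean ± SD of 3 libraries. With anti-IgM at 68 h the DL1 libraries lie at 11.0% to 12.4% and the OP9 libraries at 5.22% to 6.17%.

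Mean levels spanned a wide range on the TPM scale, which is per transcript length. The highest were Rps25 (3710 TPM), Rps19 (3630 TPM), a protein mutated in Diamond-Blackfan anaemia, Rps18 (3345 TPM), Rpl13 (2761 TPM) and Rps14 (2601 TPM). Rps19 ranked first in 27 of the 45 libraries. Rps25 ranked first in 10, which are the 10 libraries with high Actb. Over the 15 group means of log2(scaled TPM + 1), the SD was largest for Rps3a2 (1.80), Rps3a3 (1.66), Rps27rt (1.07), Rps25 (0.95), Rpl38 (0.86) and Rpl27 (0.84). It was among the smallest for Rps4x (0.37), Rpl7 (0.38), Rpl19 (0.39), Rpl4 (0.40) and Rpl37a (0.40). The mean of the other members followed 23 genes with a Pearson r above 0.9 over the 15 groups, most closely Rpl24 (0.97) and Rps9 (0.97), and least closely Rps27rt (-0.17), Rps3a2 (-0.06), Rps27 (0.0043) and Rps3a3 (0.04). Rps27 is a protein-coding small subunit gene with a mean of 1226 TPM. These 15 points share libraries and scaling.

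Outside the members, the genes whose group means were most like the members' mean were Gm5148 (r = 0.96), Atp5h (0.94), Minos1 (0.94), Atp5j2 (0.93), Cox7b (0.92), Pin4 (0.92), Atp5k (0.92) and Cox7a2 (0.91), then Rps23-ps (0.91) and Gm7536 (0.91), over 15 groups. Atp5h, Atp5j2 and Atp5k encode subunits of mitochondrial ATP synthase, and Cox7b and Cox7a2 subunits of cytochrome c oxidase. Rps23-ps is by its symbol a pseudogene of the member Rps23. Of the 31-base words in transcripts of the member Rpl27a, 14.6% are shared with Gm7536. Reads of Rps23-ps and Gm7536 may therefore be split with members, and the part of this in their r was not tested. Of the ribosomal proteins whose symbols fall outside the pattern, Fau (small subunit, fused to a ubiquitin-like domain) had r = 0.86 with the members' mean, and Gnb2l1 (the small subunit scaffold Rack1) had r = 0.61.

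**Figure D2:**
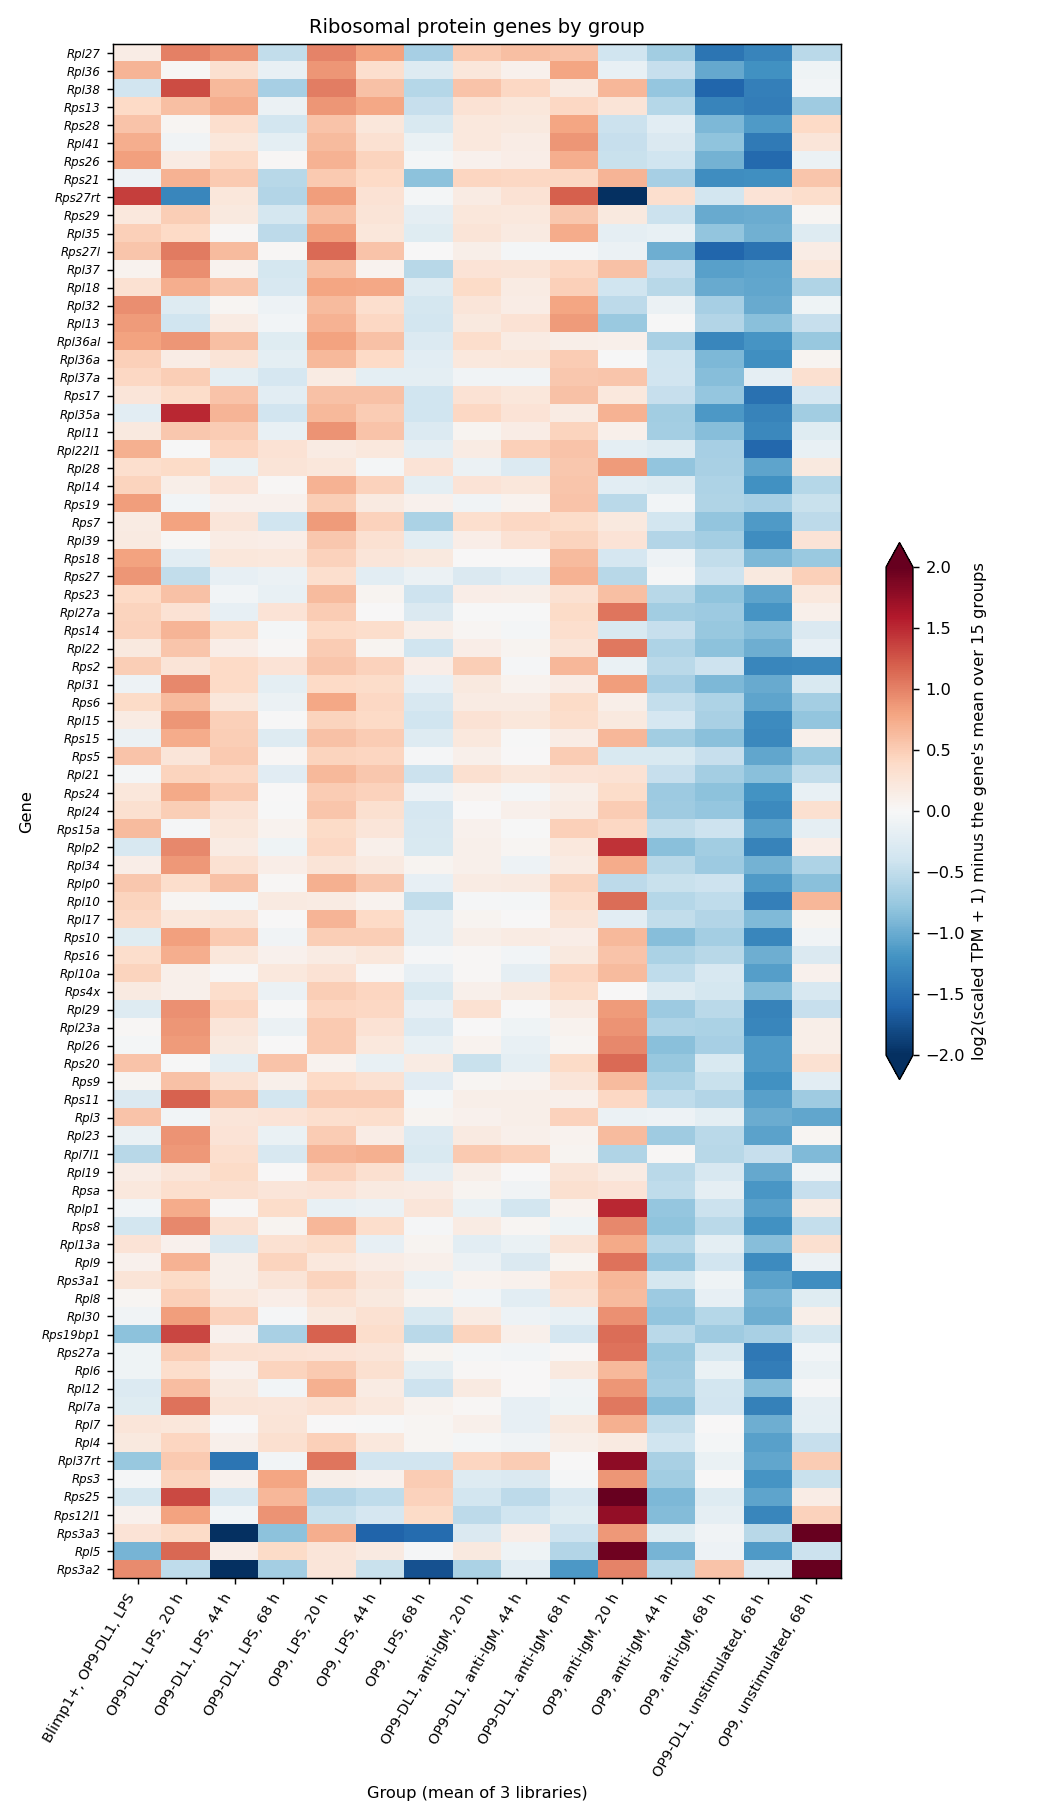
Group means of 85 of the 86 genes (rows, ordered by the DL1 minus OP9 difference at 68 h of anti-IgM) in the 15 groups (columns, mean of 3 libraries). Colour gives log2(scaled TPM + 1) minus the gene's mean over the groups. Unstimulated DL1 cells were the lowest group for 69 of the 86 genes, and the largest row ranges are those of Rps3a2 and Rps3a3.

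The comparison of DL1 with OP9 cells asks how the Notch ligand changes the response of B cells to each stimulus. With anti-IgM, ribosomal protein transcripts took a larger share in DL1 cells at the later times. At 68 h the share was 11.0%, 12.4% and 12.3% in DL1 cells, against 6.17%, 5.22% and 6.04% in OP9 cells, a ratio of means of 2.05. Each DL1 library lay above every OP9 library. Of the 86 genes, 12 were called higher in DL1 cells and 0 lower (limma, adjusted p below 0.05 over 15614 genes), which is 13.95% of the members beside 1.11% of all genes tested called higher and 0.621% called lower. The median log2 fold change, on log2(scaled TPM + 1), was 0.92 for the members and -0.12 for all genes, and 80 of the 86 values were above 0. In TPM as deposited, 64 members had 3 DL1 libraries above all 3 OP9 libraries, beside 8.18% of all genes. The B cell markers summed to 17940 to 20969 TPM in DL1 cells, against 31178, 36740 and 4257 TPM in OP9 cells. The T cell markers summed to 364 to 415 TPM in DL1 cells, against 390, 428 and 77.2 TPM in OP9 cells. The last value of each is OP9 replicate 3, which has high Actb.

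The genes called higher were of both subunits, with 4 Rps and 8 Rpl genes. Rpl27, a large subunit protein, had 483, 687 and 618 TPM in DL1 cells, against 241, 144 and 56.9 TPM in OP9 cells (log2 fold change 2.03 ± 0.39, SE, limma adjusted p = 0.00487). Rps27l, a paralog of Rps27 known as a p53 target, had 869, 788 and 975 TPM in DL1 cells, against 315, 304 and 187 TPM in OP9 cells (1.54 ± 0.34, adjusted p = 0.0148). In each of these genes the groups do not overlap, and OP9 replicate 3, which has high Actb, was the lowest. Rps26, which sits at the mRNA exit of the small subunit, had 1207, 1281 and 1352 TPM in DL1 cells, against 435, 341 and 288 TPM in OP9 cells (1.67 ± 0.44, adjusted p = 0.0441). Rps28, also at the mRNA exit, had 2292, 2436 and 2437 TPM in DL1 cells, against 969, 648 and 429 TPM in OP9 cells (1.69 ± 0.45, adjusted p = 0.0438). Rpl36 had 1260, 1786 and 1484 TPM in DL1 cells, against 485, 345 and 304 TPM in OP9 cells (1.81 ± 0.48, adjusted p = 0.0451). Again no library of either group lay within the range of the other. Rpl35, a protein at the exit of the peptide tunnel, had 2664, 4220 and 3051 TPM in DL1 cells, against 1675, 1087 and 504 TPM in OP9 cells (1.54 ± 0.41, adjusted p = 0.0441). The other 6 called genes were Rpl18, Rpl13, Rpl36al, Rpl37a, Rps14 and the stalk base protein Rplp0, with values of 0.86 to 1.48.

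**Figure D3:**
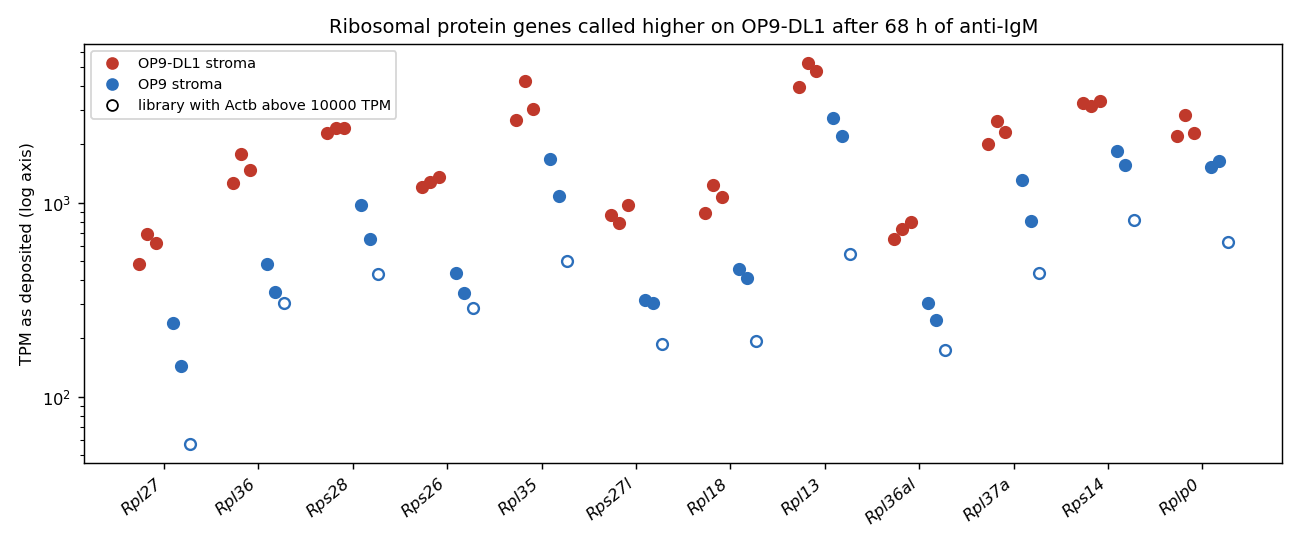
TPM as deposited (log axis) of the 12 genes called higher in DL1 than in OP9 cells after 68 h of anti-IgM, ordered by fold change. Each point is a library, red for OP9-DL1 and blue for OP9 cultures, and the open point is OP9 replicate 3 (Actb above 10000 TPM). In all 12 genes the DL1 libraries lie above the OP9 libraries and the open point is the lowest.

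These calls moved with the libraries used. When the 10 libraries with high Actb were left out, 71 members were called higher, with a median of 1.45. With DL1 replicate 2 or replicate 3 left out, 1 was called, and with OP9 replicate 3 left out 24 were called. With each of the 6 libraries left out in turn, Rpl27 kept its call in 6 fits and Rps27l in 3. Rps26, Rps28 and Rpl36 kept theirs in 1 fit each and Rpl35 in 0. With no filter on low values Rps26, Rps28, Rpl36 and Rpl35 lost the call too. Members that stood farthest from the rest were Rps3a2 (-1.72 ± 0.95), Rpl5 (-0.47 ± 0.89) and Rps3a3 (-0.35 ± 0.76), none of them called.

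At 44 h the members' share was 10.6%, 9.97% and 10.1% in DL1 cells, against 7.69%, 7.70% and 8.58% in OP9 cells, and no library of either group has high Actb. The groups do not overlap. The median log2 fold change was 0.57, against -0.01 for all genes, and 75 members had all 3 DL1 libraries above all 3 OP9 libraries in scaled TPM, beside 16.6% of all genes. No member was called (9 at an unadjusted limma p below 0.05), beside 0.538% of all genes called higher and 0.359% lower. The B cell markers summed to 9432 to 10434 TPM in DL1 cells, against 20066 to 23056 TPM in OP9 cells, and the T cell markers to 263 to 294 TPM in DL1 cells, against 322 to 343 TPM in OP9 cells. Rpl27 again had the highest value (1.29 ± 0.39, adjusted p = 0.129). It had 694, 608 and 660 TPM in DL1 cells, against 263, 273 and 354 TPM in OP9 cells.

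With LPS no such difference was found. The members' share at 44 h was 12.3%, 8.68% and 11.4% in DL1 cells, against 10.4%, 13.0% and 10.2% in OP9 cells. At 68 h it was 8.64%, 8.99% and 11.1% in DL1 cells, against 7.44%, 8.95% and 9.75% in OP9 cells. The groups overlap at both times. The medians were -0.02 at 44 h and 0.19 at 68 h, and no member was called (0 at an unadjusted limma p below 0.05 at either time), beside 0.141% of all genes called higher and 0.0192% lower at 44 h, and 0.0192% higher and 0.0448% lower at 68 h. Rpl27 had 859, 566 and 757 TPM in DL1 cells at 44 h, against 547, 880 and 669 TPM in OP9 cells.

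The difference between the stimuli was tested itself. The DL1 effect with LPS minus that with anti-IgM at 44 h had a median of -0.62 over the members and 85 of 86 values below 0, with 0 called (4 at an unadjusted limma p below 0.05), beside 0.0384% of all genes in each direction. At 68 h, a contrast added after the data were seen, the median was -0.67 with 75 of 86 values below 0 and 0 called (22 at an unadjusted p below 0.05), beside 0.0576% of all genes called higher and 0.141% lower. The median without the 10 libraries was -1.39, still with 0 called. So the DL1 effect with anti-IgM is not shown to differ from that with LPS for any single member.

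**Figure D4:**
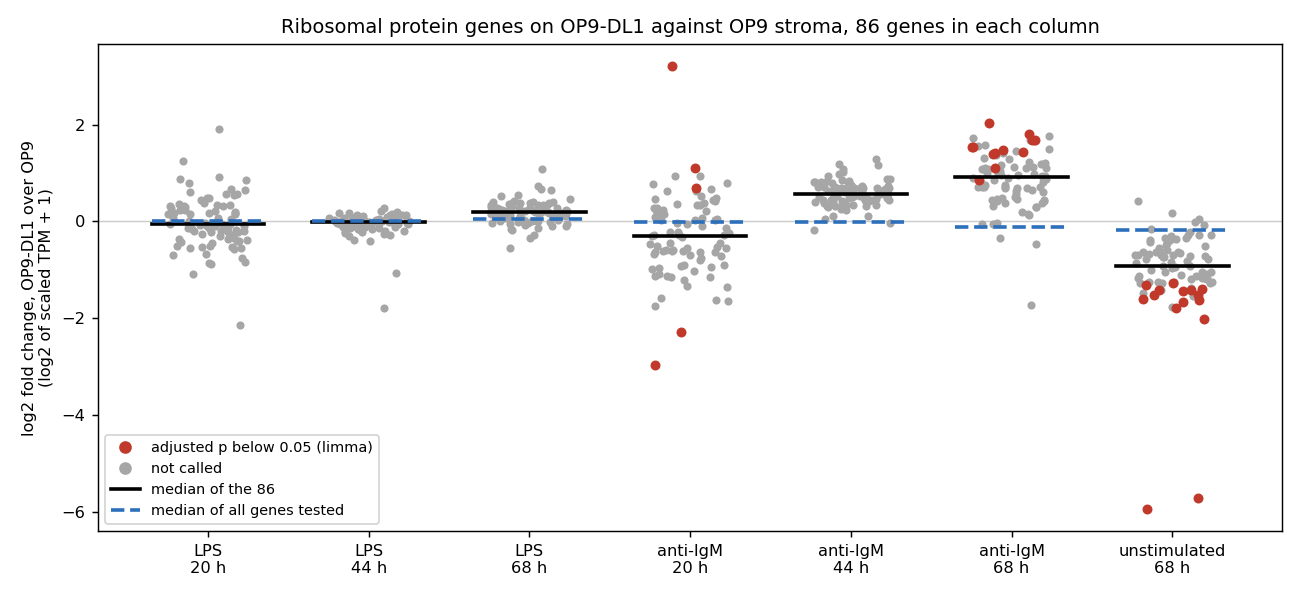
Log2 fold change of DL1 over OP9 cells for the 86 genes in 7 pairs of cultures, on log2(scaled TPM + 1). Each point is a gene, red where limma's adjusted p was below 0.05, with the members' median as a black line and the median of all 15614 genes as a dashed blue line. The members' median lies at 0.92 with anti-IgM at 68 h, at 0.19 with LPS at 68 h and at -0.92 in unstimulated cells.

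Without a stimulus the direction was the other way. The members' share was 4.24%, 5.73% and 7.56% in DL1 cells, against 8.20%, 7.96% and 6.46% in OP9 cells, and the groups overlap. The members' median was -0.92, against -0.19 for all genes. Of the 86, 15 were called lower and 0 higher, which is 17.44% and near the 17.6% of all genes called lower (8.84% were called higher). Without Rps3a2 and Rps3a3 the count was 13 of 84 (15.48%). The B cell markers summed to 31089 to 40286 TPM in DL1 cells, against 2213 to 12568 TPM in OP9 cells, and the T cell markers to 140 to 183 TPM in DL1 cells, against 9.82 to 44.6 TPM in OP9 cells. Rpl10, which joins the large subunit late in its assembly, had 178, 240 and 358 TPM in DL1 cells, against 736, 521 and 916 TPM in OP9 cells (-2.02 ± 0.59, limma adjusted p = 0.0094). Rps27l had 375, 340 and 501 TPM in DL1 cells, against 1437, 1227 and 368 TPM in OP9 cells (-1.63 ± 0.34, adjusted p = 0.000335), and its groups overlap in deposited TPM through OP9 replicate 3. Rps21 (-1.78 ± 0.55, adjusted p = 0.0132) and Rpl41, among the shortest proteins known (-1.66 ± 0.47, adjusted p = 0.00681), were also called lower. Leaving out OP9 replicate 1 left 4 calls, and without the 10 libraries 26 were lower and 1 higher. Rpl10 was not called with OP9 replicate 3 left out.

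The largest differences there were those of Rps3a2 and Rps3a3, which GENCODE lists as processed pseudogenes of Rps3a1. Rps3a2 had 5.33, 7.18 and 1.01 TPM in DL1 cells, against 408, 284 and 88.4 TPM in OP9 cells. Rps3a3 had 1.03, 7.64 and 5.97 TPM in DL1 cells, against 308, 197 and 116 TPM in OP9 cells. These values put both genes among the members and so get no test. The 3 unstimulated OP9 libraries were far above the other 42, in which Rps3a2 reached 14.2 TPM and Rps3a3 22.2 TPM at most. The same 3 libraries had the high stromal sums, 1179 to 16468 TPM, against 176 to 409 TPM in unstimulated DL1 cells. A list of 7 myeloid genes also summed to 23.7 to 90.6 TPM in unstimulated OP9 cells, against 5.19 to 9.58 TPM in unstimulated DL1 cells. Rps3a1 itself, the protein-coding source gene, had a log2 fold change of 0.17 ± 0.54 and was not called.

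**Figure D5:**
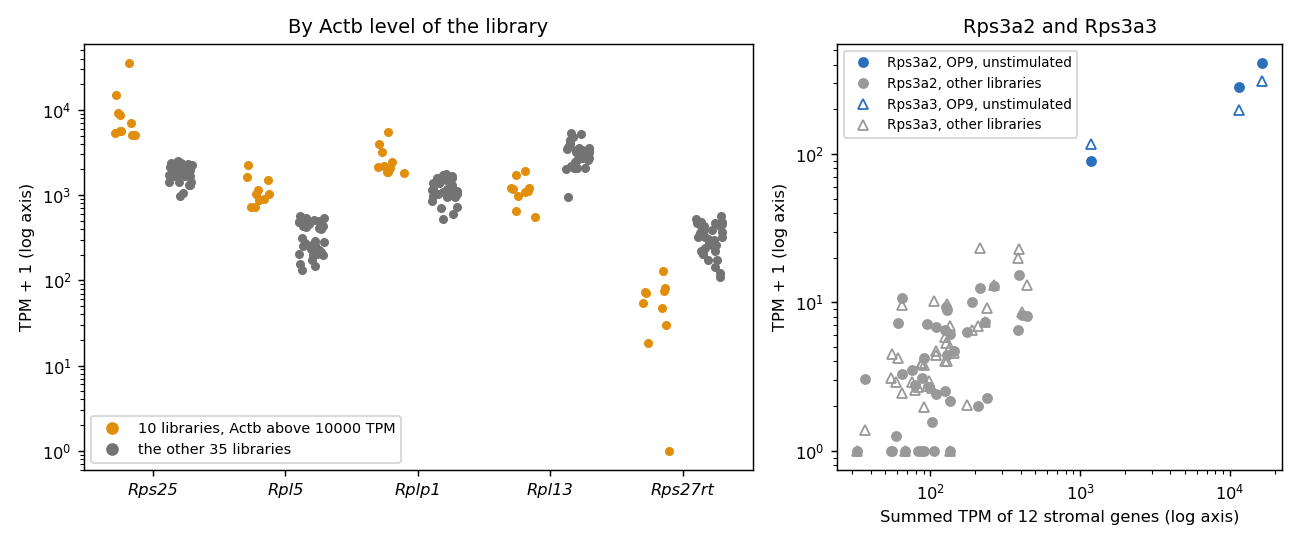
Left, TPM + 1 (log axis) of 5 members in the 10 libraries with Actb above 10000 TPM (orange) and the other 35 (grey). Right, TPM + 1 of Rps3a2 (circles) and Rps3a3 (triangles) against the summed TPM of 12 stromal genes, both on log axes, for unstimulated OP9 cells (blue) and the other libraries (grey). Rps25 lies at 5047 TPM or more in the 10 libraries and at 2533 TPM or less in the others, and the 3 blue libraries stand apart on both axes of the right plot.

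The DL1 effect with anti-IgM minus the DL1 effect without a stimulus, at 68 h, was positive in all 86 members, with a median of 1.76 against 0.04 for all genes. In this contrast, added after the data were seen, 40 members were called (46.51%), all positive, beside 11.4% of all genes called positive and 4.16% negative, and 38 of the 84 other than Rps3a2 and Rps3a3 (45.24%). When the 10 libraries were left out, 80 were called with a median of 2.26. With OP9 anti-IgM replicate 2 left out 24 were called, and with replicate 3 left out 75. Rps27l had 3.17 ± 0.48 (limma adjusted p = 2.03e-05), Rpl41 had 3.35 ± 0.66 (adjusted p = 0.000525), Rps28 had 3.21 ± 0.63 (adjusted p = 0.000476) and Rps21 had 3.44 ± 0.77 (adjusted p = 0.00196). Each of these 4 kept its call with every single library of the 4 groups left out. The contrast includes the unstimulated OP9 cells with their stromal transcripts.

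Stimulated were also compared with unstimulated DL1 cells at 68 h, to see what a stimulus does on the Notch ligand. Ribosomal protein genes of both subunits rose with anti-IgM, with LPS and in Blimp1+ cells. The 3 comparisons share the unstimulated DL1 libraries. The B cell markers summed to 17940 to 20969 TPM with anti-IgM, 5010 to 21277 TPM with LPS and 16124 to 17784 TPM in Blimp1+ cells, against 31089 to 40286 TPM in unstimulated DL1 cells. With anti-IgM 36 members were called higher and 0 lower (41.86%, beside 6.05% of all genes called higher and 3.45% lower), with a median of 1.44. With LPS 14 were called higher and 0 lower (16.28%, beside 5.54% higher and 2.56% lower), with a median of 1.09. In Blimp1+ cells 39 were called higher and 0 lower (45.35%, beside 10.3% higher and 4.24% lower), with a median of 1.32. The median of all genes was -0.07 with anti-IgM, 0.01 with LPS and -0.01 in Blimp1+ cells.

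Rps26 had 926, 883 and 1393 TPM in Blimp1+ cells and 1207, 1281 and 1352 TPM with anti-IgM, against 192, 353 and 521 TPM in unstimulated DL1 cells. Its log2 fold change was 2.37 ± 0.44 (limma adjusted p = 0.000164) in Blimp1+ cells and 2.27 ± 0.44 (adjusted p = 0.000538) with anti-IgM, and no library overlaps with the unstimulated ones. Rpl22l1, a paralog of Rpl22, had 364, 310 and 499 TPM in Blimp1+ cells and 411, 388 and 586 TPM with anti-IgM, against 66.3, 158 and 195 TPM in unstimulated DL1 cells (2.28 ± 0.48 in Blimp1+ cells and 2.14 ± 0.48 with anti-IgM). Rpl41 had 2693, 3580 and 3068 TPM with anti-IgM, against 422, 880 and 1267 TPM in unstimulated DL1 cells (2.30 ± 0.47, adjusted p = 0.000894). Here too the groups lie apart, with unstimulated replicate 1 the lowest library in each gene. Rps2, a core protein of the small subunit, had 2134, 2358 and 2120 TPM with anti-IgM, against 585, 637 and 910 TPM in unstimulated DL1 cells (1.97 ± 0.32, adjusted p = 4.75e-05). With LPS it had 1747, 1891 and 1150 TPM (1.59 ± 0.32, adjusted p = 0.000806). Rpsa, a small subunit protein that is also called the laminin receptor, had 556, 539 and 544 TPM with LPS, against 244, 268 and 325 TPM in unstimulated DL1 cells (1.41 ± 0.31, adjusted p = 0.00239). Both genes kept their LPS calls with any single library left out.

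Unstimulated DL1 replicate 1 weighs on these counts. With it left out, 20 members were called with anti-IgM, 6 with LPS and 20 in Blimp1+ cells. With TPM as deposited, 19 were called higher and 1 lower in Blimp1+ cells. Without the 10 libraries, none of which is in the unstimulated DL1, anti-IgM DL1 or Blimp1+ groups, 76 were called with anti-IgM and 68 in Blimp1+ cells at unchanged fold changes, since the model pools its spread over all groups.

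On OP9 the same question gave few calls. Rps3a2 and Rps3a3, which are members only through unstimulated OP9 cells, get no test here, and 84 members are left. With LPS 4 of these were called higher and 0 lower (4.76% and 0%), below the 11.4% and 19.1% of all genes. Their median was -0.01 against -0.21 for all genes. With anti-IgM 2 of the 84 were called higher and 6 lower (2.38% and 7.14%), beside 8.35% and 15.5% of all genes. Their median was -0.49 against -0.07. Over all 86 the lower counts were 2 with LPS and 8 with anti-IgM. The B cell markers summed to 7495 to 16989 TPM with LPS and 4257 to 36740 TPM with anti-IgM, against 2213 to 12568 TPM in unstimulated OP9 cells, and the T cell markers to 30.7 to 48.3 TPM with LPS and 77.2 to 428 TPM with anti-IgM, against 9.82 to 44.6 TPM in unstimulated cells. Stromal genes summed to 58.7 to 134 TPM with LPS and 60.4 to 233 TPM with anti-IgM, against 1179 to 16468 TPM in unstimulated cells. Myeloid genes summed to 3.85 to 5.75 TPM with LPS and 5.51 to 11.4 TPM with anti-IgM, against 23.7 to 90.6 TPM. The part of these transcripts in the differences was not tested. Rps2 and Rpl3, a protein near the peptidyl transferase centre, were called higher with both stimuli. The Rps2 call with anti-IgM (0.88) was lost without the 10 libraries, with no filter on low values and with 3 of 6 single libraries left out (anti-IgM replicate 3, unstimulated replicates 1 and 2), over a range of 0.39 to 1.17. Rpl3 had 1553, 1885 and 1075 TPM with LPS and 1609, 1509 and 607 TPM with anti-IgM, against 697, 822 and 424 TPM in unstimulated OP9 cells (1.10 ± 0.21 with LPS, limma adjusted p = 7.61e-05, and 0.85 ± 0.21 with anti-IgM, adjusted p = 0.0019). The anti-IgM and unstimulated libraries overlap in deposited TPM through replicate 3 of anti-IgM. Rps27l fell with anti-IgM to 315, 304 and 187 TPM, against 1437, 1227 and 368 TPM in unstimulated OP9 cells (-1.73 ± 0.34, adjusted p = 0.000139). Rps21 (-1.80 ± 0.55, adjusted p = 0.0131) and Rpl38 (-1.54 ± 0.49, adjusted p = 0.0174) were called lower too, next to Rpl37, Rps28 and Rpl37a. Counted over all 86, 33 members were called lower and 3 higher with anti-IgM without the 10 libraries. With OP9 anti-IgM replicate 2 or unstimulated OP9 replicate 1 left out, 3 were called lower, and with anti-IgM replicate 3 left out, 29.

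LPS and anti-IgM were compared within a stroma. On OP9 at 44 h the members were higher with LPS, with a median of 0.80 against -0.04 for all genes, and 67 had all 3 LPS libraries above all 3 anti-IgM libraries in scaled TPM, beside 21.5% of all genes. Of the 86, 6 were called higher and 0 lower (6.98%, beside 4.9% of all genes called higher and 3.73% lower). The B cell markers summed to 6540 to 7463 TPM with LPS, against 20066 to 23056 TPM with anti-IgM. The T cell markers summed to 22.1 to 34.4 TPM with LPS, against 322 to 343 TPM with anti-IgM. Among them Lck was called lower with LPS (-3.37 ± 0.49, limma adjusted p = 8.97e-06). Cd3g (-1.62 ± 0.54), Cd8a (-0.32 ± 0.39), Cd4 (-0.08 ± 0.55) and Cd3d (0.15 ± 0.41) were not called. Cd3e and Cd4 lay at 0 in all LPS libraries. Rplp0 had 2381, 2366 and 2965 TPM with LPS, against 1527, 1590 and 1594 TPM with anti-IgM (0.98 ± 0.22, limma adjusted p = 0.00244). Rps27l had 1245, 1680 and 1121 TPM with LPS, against 527, 572 and 547 TPM with anti-IgM (1.55 ± 0.34, adjusted p = 0.00215). Rpl18, Rpl27, Rpl36al and Rps2 were the others, and all but Rps27l lost the call with TPM as deposited. Without OP9 LPS replicate 2, 3 were called, and without the 10 libraries 36. At 68 h on OP9 only Rps27l was called (1.59 ± 0.34, adjusted p = 0.00259), beside 2.82% of all genes called higher and 1.74% lower, with 860, 922 and 800 TPM with LPS, against 315, 304 and 187 TPM with anti-IgM. With OP9 anti-IgM replicate 3 left out, 5 were called. On DL1 no member was called at 44 h (median 0.21, 3 at an unadjusted limma p below 0.05, beside 1.52% of all genes higher and 1.39% lower) or at 68 h (median -0.29, 8 at an unadjusted p below 0.05, beside 2.61% higher and 1.78% lower).

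Few members changed over time. At 68 against 44 h with LPS, the median was -0.49 on OP9 and -0.25 on DL1, against 0.06 and 0.13 for all genes. On OP9 4 members were called lower and 0 higher, and on DL1 1 lower and 0 higher, beside 4.02% of all genes called lower and 2.88% higher on OP9, and 4.14% lower and 3% higher on DL1. Rpl27 was called on both stromata. On DL1 it had 320, 318 and 172 TPM at 68 h, against 859, 566 and 757 TPM at 44 h (-1.39 ± 0.39, limma adjusted p = 0.0214), and on OP9 214, 292 and 213 TPM at 68 h, against 547, 880 and 669 TPM at 44 h (-1.47 ± 0.39, adjusted p = 0.0135). The times do not overlap on either stroma. Rpl18, Rpl7l1 and Rplp0 were the other calls on OP9, with 1 or 2 calls left when any single library was left out. Without the 10 libraries the counts of lower calls were 9 on OP9 and 10 on DL1. With anti-IgM no member was called between 68 and 44 h on OP9 (median -0.09, 1 at an unadjusted p below 0.05, beside 0.0064% of all genes in each direction) or on DL1 (median 0.21, 2 at an unadjusted p below 0.05, beside 0.128% higher and 0.0512% lower). The members' summed share with anti-IgM was nevertheless apart between these times, at 5.22% to 6.17% at 68 h against 7.69% to 8.58% at 44 h on OP9, and at 11.0% to 12.4% against 9.97% to 10.6% on DL1. Between 44 and 20 h no member was called with LPS on OP9 (median -0.21, 3 at an unadjusted p below 0.05, beside 1.06% of all genes higher and 0.685% lower) or with anti-IgM on DL1 (median -0.05, 0 at an unadjusted p below 0.05, beside 0.0256% in each direction).

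Blimp1+ cells were set against DL1 cells with LPS at 44 and 68 h, although nothing ties them to either time. The members' share was 8.49%, 8.01% and 10.9% in Blimp1+ cells, against 12.3%, 8.68% and 11.4% at 44 h and 8.64%, 8.99% and 11.1% at 68 h, and the groups overlap. Against 44 h, the members' median was 0.01, against 0.09 for all genes, and against 68 h it was 0.23. Against 44 h 2 were called higher, Rps3a2 and Rps3a3, both under 10 TPM in all 6 libraries, and 1 lower, beside 7.03% and 5.03% of all genes. With TPM as deposited the split was 1 higher and 8 lower. The lower one was Rpl7l1, a nucleolar relative of Rpl7 that acts in large subunit assembly, with 77.0, 85.3 and 76.8 TPM in Blimp1+ cells, against 191, 179 and 194 TPM with LPS at 44 h (-0.89 ± 0.27, limma adjusted p = 0.0225). Its libraries do not overlap, and the call was lost with TPM as deposited and with 5 of 6 libraries left out in turn. Against 68 h no member was called (10 at an unadjusted limma p below 0.05), beside 2.56% of all genes higher and 0.282% lower.

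Genes of other parts of the translation machinery were also followed. Their counts are to be read beside the shares of all genes called, given above for each of these comparisons. In Blimp1+ cells against 44 h of LPS, 6 of 8 escorts and late assembly factors of ribosomal proteins were called lower (median -1.25), among them Tsr2, the escort of Rps26 (-1.55 ± 0.30, limma adjusted p = 0.000351), and Ltv1, a small subunit assembly factor (-1.35 ± 0.25, adjusted p = 0.000155). Of 26 initiation factors outside the TOP list 11 were called lower (median -0.86), such as Eif2b1, a subunit of the exchange factor of eIF2 (-1.32 ± 0.20, adjusted p = 8.65e-06). The members had a median of 0.01 in the same comparison. In Blimp1+ cells against 68 h of LPS no gene of either list was called. There Tsr2 had -0.0075 ± 0.30, Ltv1 -0.051 ± 0.25 and Eif2b1 -0.15 ± 0.20. Between 68 and 44 h of LPS, 5 of the 8 escorts were called lower on each stroma (median of -1.30 on OP9), and so were 9 of the 26 initiation factors on OP9 and 8 on DL1. With anti-IgM at 68 h, 2 of 20 TOP mRNA factors outside the ribosome were called higher in DL1 than in OP9 cells, Eef1d, an exchange factor of the elongation factor eEF1A (1.40 ± 0.28, adjusted p = 0.00681), and the nucleolar chaperone Npm1 (0.72 ± 0.19, adjusted p = 0.0438). The list's median was 0.23, against 0.92 for the members. Fau was not called (1.16 ± 0.46, adjusted p = 0.178 by limma). With anti-IgM against unstimulated DL1 cells 12 of the 20 TOP factors were called higher (median 1.01), such as Eif3k (1.58 ± 0.35) and Btf3 (1.49 ± 0.34), and 0 of 9 ribosome rescue factors and 0 of 8 escorts.

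At 20 h the comparisons of stromata coincide with the Actb trait. The members' share with anti-IgM was 10.5% ± 2.38 in DL1 cells, against 10.6% ± 3.12 in OP9 cells (SD, n = 3 each), and the groups overlap. With LPS no member was called (2 at an unadjusted limma p below 0.05, beside 4.41% of all genes higher and 4.43% lower). With anti-IgM 3 were called higher in DL1 cells, Rpl7l1 (1.11 ± 0.27), Rplp0 (0.70 ± 0.22) and Rps27rt (3.21 ± 1.06), beside 10.2% of all genes. Called lower were 2, Rps25 (-2.97 ± 0.88) and the pseudogene Rps12l1 (-2.28 ± 0.81), beside 10.3% of all genes. With TPM as deposited 10 were called higher, and with the authors' log2 values 15. Rps25, a small subunit protein used in initiation at some viral IRES elements, had 2384, 2146 and 2042 TPM in DL1 cells, against 35195, 5102 and 9082 TPM in OP9 cells. It had 5047 to 35195 TPM in the 10 libraries with high Actb, against 975 to 2533 TPM in the other 35. Rpl5, which carries the 5S rRNA into the large subunit and binds Mdm2, had 716 to 2247 TPM in the 10 libraries, against 130 to 571 TPM in the others. Rplp1, a stalk protein, had 1841 to 5487 TPM in the 10 libraries, against 527 to 1787 TPM in the others. In these 3 members the 10 libraries all lay above the other 35, and in none did they all lie below. The medians of the 10 were at least 1.5 times those of the others in 16 members and at most 1/1.5 of them in 20, lowest in Rps27rt (61.6 against 320 TPM) and Rpl13 (1136 against 3223 TPM).

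Several members are copies whose reads can be split between loci, so their values are uncertain. By 31-base words of the GENCODE transcripts (GRCm38), all of Rps12l1 is shared with Rps12, 91.6% of Rps27rt with Rps27, 84.8% of Rps3a2 and 67.2% of Rps3a3 with Rps3a1, and 39.4% of Rpl37rt with Rpl37. By contrast 0% of Rps27l, Rpl36al, Rpl22l1 and Rpl7l1 is shared with the relative each is named after. The median member had 74.9% of its words to itself, and 10 members had under 50%, Rpl36 with 5.95% among them. Rps12 was listed at a mean of 7.75 TPM while its full copy Rps12l1 had 192 to 2707 TPM. A further 252 rows with pseudogene symbols of ribosomal proteins summed to 2740 to 12165 TPM per library. The start windows of Rps27 (chr3:90213629-90213678, minus strand) and of its intronless copy Rps27rt (chr9:114982720-114982769, minus strand) show how alike such a pair can be, with the longest stretch they share, 19 bases, in capitals.
Rps27: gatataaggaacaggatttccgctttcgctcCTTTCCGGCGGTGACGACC
Rps27rt: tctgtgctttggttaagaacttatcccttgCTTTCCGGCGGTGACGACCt
The shared stretch starts within 1 base of the annotated start in both genes, and upstream of it the windows differ. Over all 24 comparisons 56 members were called at least once and 30 in none. Rplp0 was called most often, 7 times higher and 1 time lower, followed by Rps27l with 6 higher and 2 lower and Rps2 with 6 higher. Comparisons share groups, so these counts are not independent.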

How the data were processed

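RNA of sorted cells from 45 cultures in 15 groups of 3 was made into cDNA with a SMART-seq kit and into libraries with Nextera XT, per the labels' protocols. Per the submitters' processing notes, kallisto and limma were used, with the builds GRCm38 and mm10 named. The authors deposited TPM per gene symbol. They also deposited log2 values, which served as an alternative and whose floor gave the estimate of depth. The listed TPM add up to 92.1% to 96.0% of 1e+06. TPM keep no depth, so intervals for counting error were not given. The labels name HiSeq and NextSeq, and the instrument of each library is not given in the sources used here.

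Each library's TPM were scaled by its median-ratio factor (0.436 to 1.42) and log2(value + 1) was taken, which understates changes of low genes. Genes with at least 1 TPM in at least 3 libraries were tested (15614 of 30317, all 86 members). One limma model (version 3.58.1, R 4.3.3) with 15 group means, a mean-variance trend and robust moderation was fitted to all libraries. Each of 24 comparisons and 3 interactions is a contrast with Benjamini-Hochberg adjustment over all genes tested, called at an adjusted p below 0.05. Since the replicates' nature is not stated, p-values measure only the spread between these libraries, which may be technical. The members and lists were chosen with earlier results of these data known. Genes were named by rule: the 5 highest levels, the 6 largest and 6 smallest SDs over groups, per comparison up to 6 called members in each direction whose libraries do not overlap, the members farthest from the median, copies, and up to 4 called genes of each list. Rplp1, Rpl5 and Rpl13 in the account of high Actb were chosen after their values were seen. Same-numbered replicates deviated together in 4 of the 24 comparisons by the check used (every correlation above 0.1; range -0.21 to 0.77), DL1 effect with LPS at 68 h, both stimuli against unstimulated OP9 cells, and LPS against anti-IgM on OP9 at 68 h, and no label says what a number marks. Some results that these rules name are not reported here. The fit was tested on simulated data.

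Alternatives were TPM as deposited, the authors' log2 table, size factors without the members, a pseudocount of 0.1, no filter, the replicate number as a block, no libraries with Actb above 10000 TPM, and each library left out in turn. Shared 31-base words were counted in GENCODE M21 transcripts. Start windows are RefSeq's (GRCm38.p6). Figures were drawn with matplotlib.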

Additional observations from a re-analysis of the deposited data

Results flagged for a closer look

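The DL1 effect on ribosomal protein genes differed between anti-IgM and unstimulated cultures at 68 h by a test of the difference itself. In that contrast 40 of the 86 members were called (limma, adjusted p below 0.05), all with a higher DL1 effect with anti-IgM, beside 11.4% of all genes tested. Of these, 2 are Rps3a2 and Rps3a3, which are members only through their level in unstimulated OP9 cells. It was chosen after the data were seen, and the unstimulated OP9 libraries carry stromal transcripts of 1179 to 16468 TPM, whose part in it was not tested.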

How the results depend on the processing

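No named value changed sign, but the counts of called members moved. Over 24 comparisons and 3 interactions, 16 of 27 counts moved by over 1.5 times, or away from 0, under at least 1 alternative or left-out library, all 14 with a called member among them, and the other 11 stayed at 0 in the direction counted. Counted by setting, 159 recomputed counts stayed within that range and 28 did not, and with single libraries left out 136 did and 44 did not. Of the recomputed values of named members, 431 kept the call and 48 lost it, and with single libraries left out 328 kept and 122 lost it. The causes were not tested.

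With TPM as deposited, DL1 against OP9 gave 9 lower unstimulated, 10 higher with anti-IgM at 20 h and, later, 38 higher at 68 h. LPS against unstimulated OP9 gave 9 higher, 68 against 44 h of LPS on DL1 gave 4 lower, and Blimp1+ cells gave 1 higher against LPS at 44 h and 19 higher against unstimulated cells. With the authors' log2 values the DL1 counts were 6 lower unstimulated, 15 higher with anti-IgM at 20 h and, later, 30 at 68 h. LPS against unstimulated cells gave 8 on OP9 and 4 on DL1, LPS against anti-IgM on OP9 at 44 h gave 2, and 68 against 44 h of LPS on DL1 gave 5 lower. With no filter, the DL1 effect with anti-IgM at 68 h gave 5 and Blimp1+ against LPS at 44 h gave 0. Without the 10 libraries with high Actb, the DL1 effect gave 26 lower unstimulated, while anti-IgM gave 3 higher at 44 h and 71 at 68 h. Anti-IgM against unstimulated cells gave 33 lower on OP9 and 76 higher on DL1, LPS against anti-IgM on OP9 gave 36 at 44 h and 3 at 68 h, and 68 against 44 h of LPS gave 9 lower on OP9 and 10 on DL1. Blimp1+ against unstimulated cells gave 68, and the DL1 effect with anti-IgM minus that without a stimulus gave 80.

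With the replicate number as a block, 68 against 44 h of LPS on DL1 gave 2 lower, and no other count moved by over 1.5 times. In the 4 comparisons where the numbers pair the libraries the block gave 0, 4, 8 and 1, as without it.

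With single libraries left out, the DL1 effect gave 4 to 20 lower unstimulated, 0 to 2 higher with LPS at 20 h, while anti-IgM gave 1 to 2 at 20 h and 1 to 24 at 68 h. LPS against unstimulated cells gave 2 to 4 on OP9 and 6 to 14 on DL1, and anti-IgM against unstimulated cells gave 3 to 29 lower on OP9 and 20 to 39 higher on DL1. LPS against anti-IgM on OP9 gave 3 to 6 at 44 h and 1 to 5 at 68 h. At 68 against 44 h of LPS the counts were 1 to 2 lower on OP9 and 0 to 1 on DL1. Blimp1+ cells gave 0 to 1 against LPS at 44 h and 20 to 40 against unstimulated cells, and the DL1 effect with anti-IgM minus that without a stimulus gave 24 to 75. Depth is known only as an estimate, so limits from counting were not set.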
